A study of Canis lupus familiaris with 23 samples.

Results

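Macrophages are phagocytes that enter a tumor mostly as blood monocytes and take on different states there. They carry the receptor for colony-stimulating factor 1, take up and digest cell debris in lysosomes, make complement C1q and present peptides to T cells on MHC class II. In bone the same lineage also gives rise to osteoclasts, multinucleate cells that acidify the bone surface with a vacuolar proton pump and dissolve its matrix with cathepsin K, so that a canine osteosarcoma may hold both kinds of cell. The comparison here set the tumors with the highest score, a mean over a few macrophage transcripts, against those with the lowest score.

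The series held 23 Affymetrix canine expression arrays: 15 spontaneous osteosarcomas of dogs, 2 canine osteosarcoma cell lines, and kidney, liver and lymph node of healthy dogs with 2 samples each. Tumor tissue was collected at definitive surgery, before any chemotherapy, and bulk RNA of each piece was hybridized, so each value is an average over tumor, stromal and immune cells. The labels give no further treatment, stage or genotype, and do not say that each tumor came from a different dog. Tumors are numbered here from 1 to 15.

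Tumors were chosen by their own expression values. The score of a tumor was the mean of CSF1R (the CSF1 receptor), CTSS (cathepsin S, which trims the MHC class II invariant chain), LYZ (lysozyme) and CD68 (a lysosomal membrane protein of phagocytes), each as the log2 level minus its mean over the 15 tumors. The 5 highest were called macrophage-rich and the 5 lowest macrophage-poor, so 10 of 15 tumors, of 23 samples in all, entered the comparison. The macrophage-rich tumors were tumor 10 with a score of 1.80, tumor 7 with 0.97, tumor 11 with 0.69, tumor 9 with 0.38 and tumor 14 with 0.35. The macrophage-poor tumors were tumor 8 with -0.80, tumor 12 with -0.66, tumor 4 with -0.62, tumor 13 with -0.51 and tumor 15 with -0.44. Just outside these classes lay tumor 6 with 0.09 and tumor 3 with -0.44, so the lower border separated tumors with nearly equal scores, while tumor 10 stood well above the next tumor. The other tumors between the classes were tumors 1, 2 and 5.

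The word macrophage-poor is relative. In the 2 cell lines, which hold no immune cells, the score was -4.90 and -4.84, about 4 log2 units under the lowest tumor. The lowest tumor lay above the higher cell line by 2.85 for CSF1R, 1.13 for CD68, 4.15 for CTSS and 2.59 for LYZ on the log2 scale. The same score was 1.02 and 0.62 in lymph node, 0.03 and -0.64 in liver, and -2.24 and -1.95 in kidney. Every tumor, macrophage-poor ones included, thus carried transcripts of these 4 genes above the cell lines.

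The 4 genes of the score did not form a single axis. Over the 15 tumors CSF1R and CD68 moved together, with a Pearson correlation of 0.78 and a Spearman correlation of 0.81, and so did CTSS and LYZ, at 0.71 and 0.80. Across these pairs the Pearson correlations were 0.14 for CSF1R with CTSS, 0.00 for CSF1R with LYZ, -0.28 for CTSS with CD68 and -0.40 for LYZ with CD68. These values describe the genes that chose the tumors and carry no test. Each gene was represented by 1 probe set, and the 2 other bright probe sets of CTSS followed the chosen one at 0.89 and 0.91, as did the second bright one of CSF1R at 0.89. Another CSF1R probe set, at 5.79 to 8.65 over the tumors, did not follow it, with a correlation of 0.02.

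Single tumors show what the split means. Tumor 11, in the macrophage-rich class, had the highest LYZ level of all tumors, 11.12, beside a CD68 level of only 8.09. Tumor 12, in the macrophage-poor class, had a CD68 level of 10.25, above the 9.73 of the macrophage-rich tumor 14, together with the lowest LYZ level, 6.15. Tumor 6 reached 10.77 for CD68 with 8.02 for CTSS, and tumor 5 reached 10.84 for LYZ with the lowest CD68 level, 6.37. Only tumor 10 lay above the mean for all 4 genes. The score also did not rank the tumors by every macrophage gene. Tumor 6, outside both classes, had the lowest levels of all tumors for the complement gene C1QA, 5.37, and the class II gene HLA-DRB1, 8.10.

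**Figure D1:**
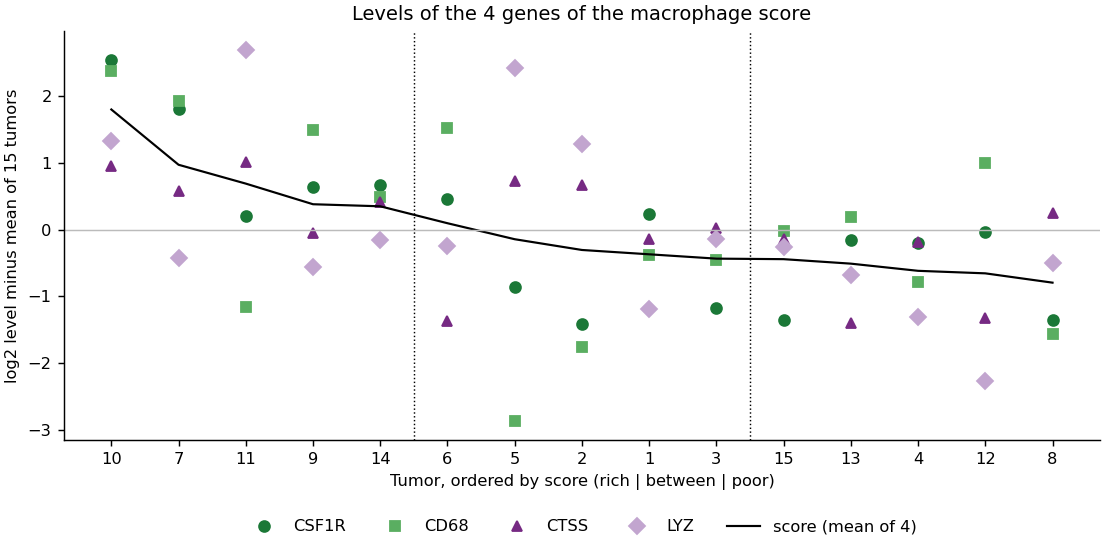
Level of each of the 4 score genes in each tumor, as log2 level minus the mean of the 15 tumors (vertical axis), with tumors ordered by score from left to right and dotted lines at the class borders. Tumor 10 is high for all 4 genes, whereas in tumors 11, 6, 5 and 12 CD68 and LYZ lie on opposite sides of the mean.

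**Figure D2:**
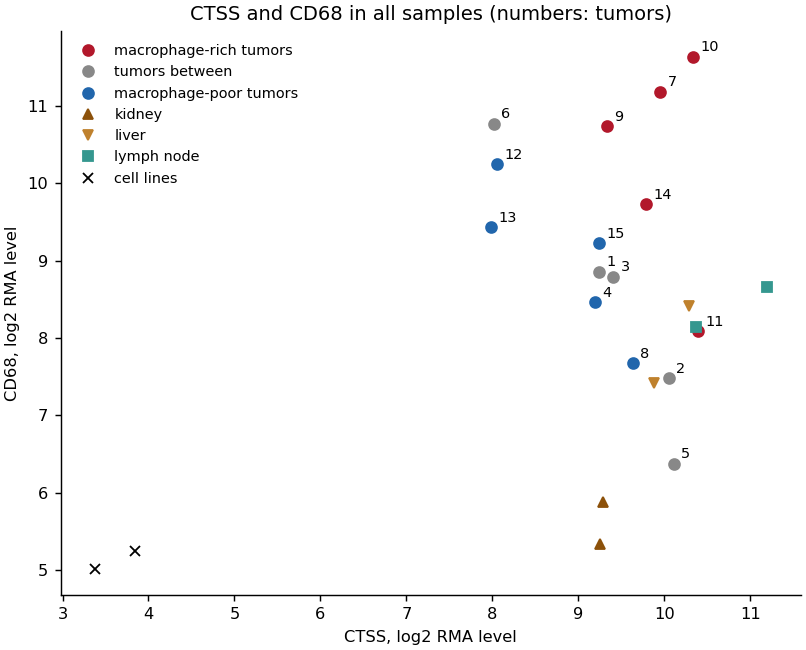
CTSS level (horizontal axis, log2) against CD68 level (vertical axis, log2) in all 23 samples, one point per sample, tumors numbered. The macrophage-rich tumors 10, 7, 9 and 14 are at the upper right, tumors 6, 12 and 13 have CD68 above the tumor mean with the lowest tumor CTSS, tumors 5 and 2 the reverse, and both cell lines lie at the lower left.

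The arrays differed in technical quality in a way that did not follow the classes. The difference between 3′ and 5′ control probe sets of actin and Gapdh, which is large where the 5′ end of transcripts was poorly labelled, averaged 2.20 ± 1.82 (SD, n = 5) in macrophage-rich and 2.14 ± 1.80 (SD, n = 5) in macrophage-poor tumors (difference 0.06, two-sided exact permutation p = 0.960; the smallest p possible in this design is 0.00794). Each class held 3 tumors with a difference over 1.5 and 1 tumor with a signal from the Dap spike control over 6 on the log2 scale, as did 3 of the 5 tumors between. Correlations between tumors over all probe sets ran from 0.882 to 0.978, and no pair of files was identical. Tumor 5, outside both classes, stood apart with a mean of the 29 measured skeletal muscle genes 3.58 above the average tumor, and the next tumor was at 0.25.

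Without the score genes, no transcript separated the 5 macrophage-rich from the 5 macrophage-poor tumors after adjustment for multiple testing. With limma and Benjamini-Hochberg adjustment, 0 of 23826 probe sets (0%) passed an adjusted p of 0.05, and the smallest adjusted p was 0.716. At an unadjusted p under 0.05 there were 913 probe sets, 503 higher and 410 lower in macrophage-rich tumors. Leaving out tumor 8 brought the smallest adjusted p to 0.0734 and the unadjusted count to 1679, still with 0 probe sets past the threshold, and the unadjusted count was 1397 without tumor 11 and 590 without tumor 10. With the 3′ to 5′ difference as a covariate the count past the threshold was again 0. The median difference over all probe sets was 0.02. In bulk tissue fewer cells of a type and less RNA per cell cannot be told apart, and this holds for each difference below.

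Several of the genes that came nearest to the threshold are known from myeloid cells, and they are described here as values that did not pass the test. The smallest p belonged to CLEC12A, an inhibitory C-type lectin receptor of myeloid cells. Its level was 5.32, 4.79, 4.81, 5.06 and 5.39 in tumors 10, 7, 11, 9 and 14, against 4.21, 3.89, 4.36, 3.89 and 4.04 in tumors 8, 12, 4, 13 and 15. The classes did not overlap, with a difference of 0.997 ± 0.153 (SE; limma adjusted p = 0.716). CLEC12A was dim, at most 5.39 in any tumor, against 3.95 and 3.47 in the cell lines. The next were SELPLG, the leukocyte ligand of P-selectin, with a difference of 0.84, ATP8A1, a phospholipid flippase, with 1.31, and CASP12, a caspase of the inflammatory group, with 1.58. They were followed by HLA-DRB1 (the array annotation's name for the dog's class II beta chain) with 1.72, MILR1, an inhibitory receptor of mast and myeloid cells, with 1.06, and C1QA, a chain of complement C1q, with 1.83. TDRD7, LOC476816 and AIF1 completed the 10 genes with the smallest p, at 0.83, 1.41 and 0.98. In these 10 genes, chosen for their p, every macrophage-rich tumor lay above every macrophage-poor tumor, and 36 of all 6536 genes (0.551%) had this order, from which nothing is read.

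At the other end lay the genes lower in macrophage-rich tumors, with larger unadjusted p than the 10 genes above. LOC475806 differed by -0.61, GORASP2, a Golgi stacking protein, by -0.72, SLAIN2, a microtubule plus-end protein, by -1.01, BTBD3 by -0.72 and LMAN1, a cargo receptor between endoplasmic reticulum and Golgi, by -1.41. GPATCH11, the deubiquitinase ATXN3, the ubiquitin-like modifier UFM1, the phosphatase subunit PPP2R3C and PCNP ranged from -1.01 to -0.37. The LMAN1 levels of the macrophage-rich tumors, 7.72, 8.55, 8.62, 7.66 and 6.95, overlapped those of the macrophage-poor tumors, 9.29, 9.80, 9.59, 8.45 and 9.43. None of the 10 passed the adjusted threshold (adjusted p = 0.999 for each).

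Macrophage surface genes lay mostly higher in the macrophage-rich tumors. Of 20 measured genes, 18 had a higher mean in macrophage-rich tumors, as did 3062 of all 6536 genes. In that direction 10 had an unadjusted p under 0.05, where 178 of all 6536 genes (2.72%) did. Both shares are the background for the counts of higher genes in the lists below. The median difference was 0.59, against -0.02 over all genes. AIF1, a calcium-binding protein of macrophages and microglia, was at 7.62, 7.30, 7.81, 7.05 and 7.03 in tumors 10, 7, 11, 9 and 14. In tumors 8, 12, 4, 13 and 15 it was at 6.69, 6.18, 6.76, 6.04 and 6.21. The costimulatory ligand CD86 differed by 1.35 ± 0.39 (SE), and its classes overlapped, since tumor 9 at 8.10 lay below tumors 4 and 8 at 8.35 and 8.20. The lipopolysaccharide coreceptor CD14 differed by 0.79 and the integrin chain ITGB2 by 0.60. The scavenger receptors CD163 and MRC1 had larger but more scattered differences, 1.19 ± 0.70 and 2.01 ± 1.09 (SE). MRC1 reached 10.38 in tumor 11 and 8.95 in tumor 10 but only 4.85 in tumor 9, close to the lowest macrophage-poor tumor at 4.42. With LYZ left out of the score both turned, to -1.06 for CD163 and -0.51 for MRC1, so their sign depended on which gene chose the classes.

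MHC class II genes had the highest median difference of the lists examined, 1.69. All 6 measured genes were higher in macrophage-rich tumors, 5 of them at an unadjusted p under 0.05. DLA-DRA, the class II alpha chain, was at 12.40, 11.86, 12.21, 11.16 and 11.86 in the macrophage-rich tumors 10, 7, 11, 9 and 14, and at 10.60, 8.53, 11.04, 9.35 and 10.35 in tumors 8, 12, 4, 13 and 15. The difference was 1.93 ± 0.45 (SE), about as large as the 1.79 of DLA-DQA1 and the 1.66 of DLA-DQB1. In the cell lines DLA-DRA was at 3.01 and 3.70, far under the lowest tumor.

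Complement and phagocyte genes showed the same order. All 10 measured complement genes had a higher mean in the macrophage-rich tumors, 6 at an unadjusted p under 0.05, with a median of 1.12. C1QA was at 9.43, 8.72, 8.78, 9.09 and 8.20 against 7.42, 6.57, 8.03, 7.03 and 6.05, without overlap. C1QC, another C1q chain, differed by 1.69, C3, the central component, by 3.25 ± 1.02 (SE) and SERPING1, the C1 inhibitor, by 1.12. The other probe sets of C3 differed by less, 0.92 to 2.09. C3 was scattered within the macrophage-rich class, from 5.27 in tumor 14 to 10.35 in tumor 11. Of 11 genes of the phagocyte oxidase and Fc receptor signalling, 10 were higher, 4 at an unadjusted p under 0.05, with a median of 1.05. CYBB, the catalytic chain of the oxidase, differed by 1.92 ± 0.46 (SE) and TYROBP, the adaptor of many myeloid receptors, by 1.18. ALOX5, the leukotriene-forming lipoxygenase, differed by 1.31, with tumor 14 highest at 7.43. FCER1G, the Fc receptor gamma chain, differed by 0.76, and 1 tumor carried most of it, since tumor 9 was at 6.10 and the next macrophage-rich tumor at 4.52.

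**Figure D3:**
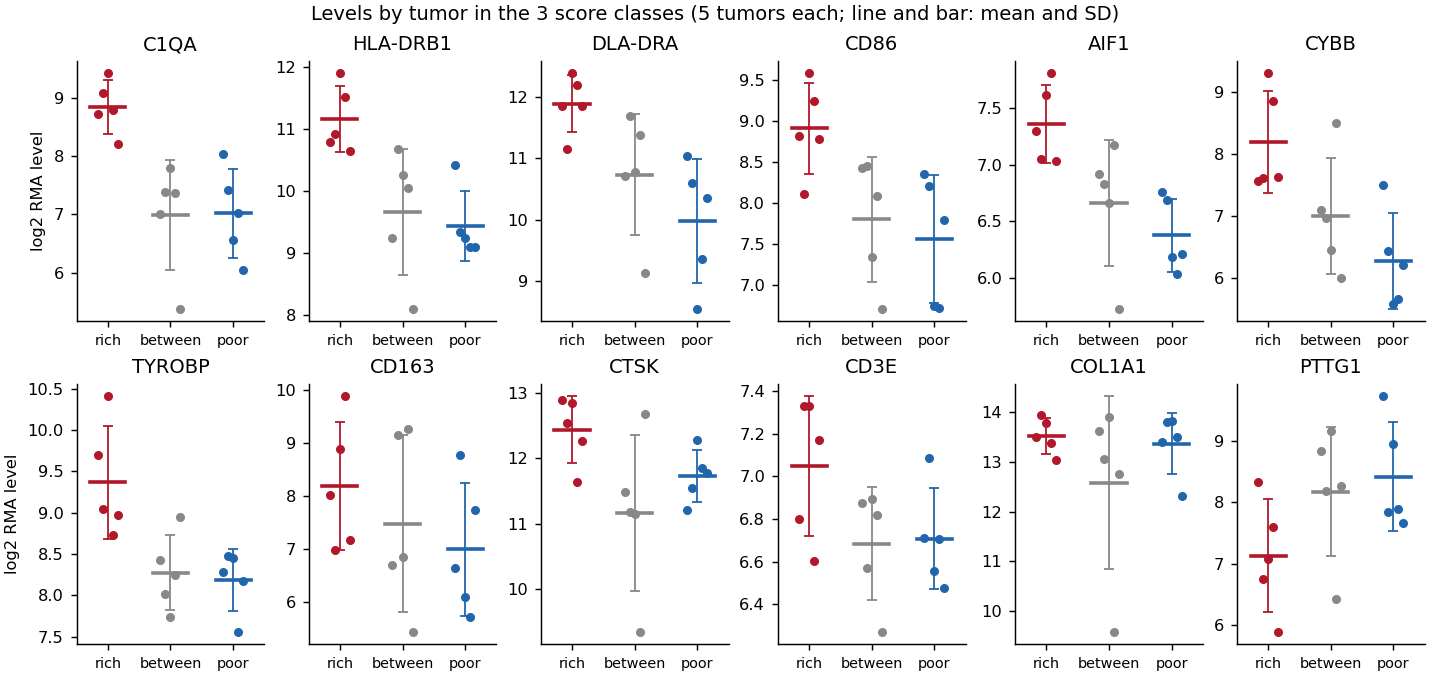
Levels of 12 genes in each tumor (vertical axis, log2), by class, with the class mean as a line and the SD as a bar (5 tumors per class). For C1QA, HLA-DRB1, DLA-DRA, AIF1, CYBB and TYROBP every macrophage-rich point lies above every macrophage-poor point, whereas CD163, CTSK, CD3E, COL1A1 and PTTG1 overlap.

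Of 23 inflammatory mediators 18 were higher and 4 had an unadjusted p under 0.05, CASP4 at 1.04, the chemokine CCL5 at 1.63 and the cytokine IL18 at 1.28 among them. The neutrophil attractant CXCL8 differed by 0.82 ± 1.49 (SE), ranging in the macrophage-poor class from 4.13 in tumor 13 to 12.76 in tumor 15, and turned to -3.64 with LYZ and -1.60 with CTSS left out of the score. The signals that recruit or sustain macrophages showed no common direction: 3 of 7 were higher and none had an unadjusted p under 0.05. The monocyte attractant CCL2 was at 8.59, 7.73, 11.89, 8.40 and 7.08 in macrophage-rich and 9.72, 6.58, 7.01, 6.84 and 12.12 in macrophage-poor tumors, with its highest levels in tumors 15 and 11 of these 10, and its difference of 0.28 turned to -3.06 with LYZ left out of the score. CD47, the signal against phagocytosis, differed by -0.35. CSF1 and IL34, the ligands of the CSF1 receptor, had no probe set named by the annotation.

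Lysosomal genes were higher in 17 of 22, with a median of 0.28 and 4 at an unadjusted p under 0.05. The proteases CTSC (cathepsin C) and CTSH (cathepsin H) differed by 0.92 and 0.74, the membrane protein LAMP1 by 0.48 and the enzyme GUSB by 0.64. CTSC ran from 10.50 to 11.63 in macrophage-rich and from 9.63 to 10.34 in macrophage-poor tumors, without overlap.

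Antigen presentation by class I and the interferon response had 13 of 14 genes higher, 4 at an unadjusted p under 0.05, with a median of 0.31. The class I gene DLA-79 differed by 1.56, the immunoproteasome subunit PSMB8 by 1.24, beta-2-microglobulin (B2M) by 0.52 and IFIT3 by 0.45. Among 4 checkpoint genes the tryptophan-degrading enzyme IDO1 differed by 0.73 and the galectin LGALS9 by 0.84, both at an unadjusted p under 0.05. The receptor HAVCR2 differed by -0.59. In the cell lines HAVCR2 was at 7.36 and 7.84, above the macrophage-rich mean of 6.57 and the macrophage-poor mean of 7.16. LGALS9 was at 7.35 and 5.26 there. The levels of HAVCR2 and LGALS9 are thus not measures of immune cells alone. T and NK cell markers lay slightly higher as well, all 11 of 11 in sign and 3 at an unadjusted p under 0.05, with a median of 0.14. CD3D differed by 1.17, NKG7 by 0.55 and CD69 by 0.96, whereas CD3E differed by 0.34 ± 0.17 (SE). CD69 and IFIT3 were dim, at most 5.38 and 4.72 in any tumor. The mean over the 11 markers, relative to the average tumor, ran from -0.11 to 0.52 in macrophage-rich and from -0.25 to 0.00 in macrophage-poor tumors. The plasma cell gene JCHAIN differed by 1.5 ± 0.86 (SE), with 11.31 in tumor 10, and by -0.60 among the tumors with full 5′ signal alone. In the cell lines, which hold no immune cells, JCHAIN was at 8.39 and 7.70, above the macrophage-poor mean of 7.39. Its level here is thus not a measure of plasma cells alone. The part of lymphocytes in the differences above was not tested.

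Extracellular matrix genes lay higher in 28 of 29, with a median of 0.64, above the 0.59 of the macrophage surface genes, but only 2, FBLN1 at 1.14 and TIMP2 at 0.90, had an unadjusted p under 0.05. Their mean over the list ran from 0.24 to 1.05 in macrophage-rich and from -1.57 to 0.52 in macrophage-poor tumors, and the part of stroma in the differences was not tested. Of 12 endothelial genes 11 were higher and none had an unadjusted p under 0.05, ENG differing by 0.73 and PECAM1 by 0.32. Bone matrix genes were divided, 6 higher and 4 lower of 10. COL1A1, the main bone collagen, differed by 0.16 ± 0.29 (SE), and ALPL, the phosphatase of mineralizing osteoblasts, by -0.97 ± 0.65 (SE).

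Cell cycle genes lay lower in macrophage-rich tumors, 17 of 18 in sign and 4 at an unadjusted p under 0.05, which 199 of all 6536 genes (3.04%) reached in that direction. The median was -0.64. PTTG1, the securin of mitosis, was at 7.08, 8.33, 7.60, 6.75 and 5.88 in macrophage-rich and 7.84, 8.94, 9.73, 7.90 and 7.66 in macrophage-poor tumors. The classes overlapped, since tumor 7 lay above 3 of the 5 macrophage-poor tumors. The kinase AURKA differed by -0.62, the thymidylate synthase TYMS by -0.87 and the origin protein ORC1 by -0.91. Glycolytic and hypoxia genes had 23 of 28 lower, 1 of them, ENO1 at -0.76, at an unadjusted p under 0.05. Respiratory chain and ribosomal protein genes were lower in 40 of 50 and 50 of 63, against 3474 of all 6536 genes, with medians of -0.17 and -0.18 and with 2 and 4 genes at an unadjusted p under 0.05. Among them were CYC1 of the respiratory chain at -0.74 and RPL8 of the large ribosomal subunit at -0.47. The fat-synthesis enzyme SCD, at -0.95, lay lower in all 5 macrophage-rich tumors than in any macrophage-poor one, in a list of 10 adipocyte genes of which 7 were lower. Of all 6536 genes 12 had this order, from which nothing is read. No gene of the B and plasma cell, neutrophil, mast cell, cartilage, pericyte, skeletal muscle or erythroid lists had an unadjusted p under 0.05.

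**Figure D4:**
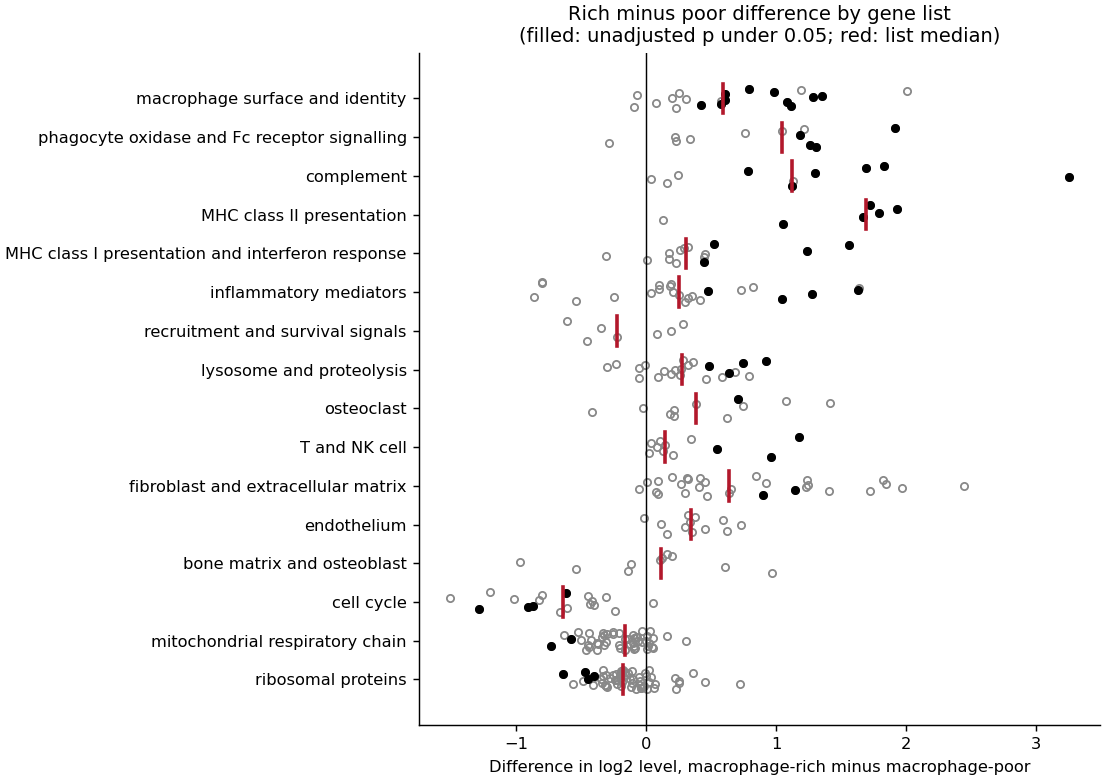
Difference in log2 level, macrophage-rich minus macrophage-poor (horizontal axis), of each measured gene in 16 gene lists; filled points have an unadjusted p under 0.05 and red lines are list medians. MHC class II, complement and phagocyte genes lie furthest to the right and cell cycle genes to the left of 0, and no point passed the adjusted threshold.

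Taking the score as a continuous measure over all 15 tumors, in place of classes, brought 6 of 23826 probe sets (0.0252%) past the threshold, all with a positive slope. The 4 with a gene name were CASP12, at a slope of 1.05 ± 0.10 per unit of score (SE; limma adjusted p = 0.000736), TYROBP at 0.90 ± 0.13 (adjusted p = 0.0405), the early activation marker CD69 at 0.72 ± 0.11 (adjusted p = 0.0498) and MILR1 at 0.69 ± 0.11 (adjusted p = 0.0498). Without tumor 10, which has the highest score, the count was 0 and the adjusted p of CASP12 was 0.172, so these calls rested on that tumor. The count was 2 without tumor 7 and 1 without tumor 2, 3, 4, 9, 14 or 15. CD69 was dim, at 5.38 in tumor 10 and at most 4.26, in tumor 14, elsewhere, against 3.28 and 3.40 in the cell lines.

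Because the score genes moved as separate pairs, every probe set was also regressed on each of the 4 genes alone over the 15 tumors, a step added after the pairs had been seen. CD68 and CTSS then gave lists with different kinds of genes. With limma and Benjamini-Hochberg adjustment, 46 probe sets rose and 3 fell with CD68, and 26 rose and 10 fell with CTSS. In named genes, 25 of 6536 (0.382%) rose with CD68 and 17 (0.26%) with CTSS.

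The genes that rose with CD68 included several of the osteoclast and of the acid lysosome. Of 11 measured osteoclast genes 4 passed, while 0 of 20 macrophage surface genes did. Of 22 genes in the lysosomal list 4 passed, ATP6AP1, ATP6V1B2, GUSB and NPC2. ATP6V0D2, a proton pump subunit known for osteoclasts, had the smallest p, with a slope of 1.42 log2 units per log2 unit of CD68 (SE 0.11, adjusted p = 2.81e-05). Its level followed CD68 from 10.22 in tumor 7, 10.14 in tumor 10 and 9.94 in tumor 6 down to 3.90 in tumor 8 and 3.69 in tumor 5. In tumor 11, macrophage-rich by its LYZ level, it was at 6.14, and in the macrophage-poor tumor 12 at 8.85. TCIRG1, the osteoclast isoform of another pump subunit, rose with a slope of 0.59 (adjusted p = 0.000327), MMP9, a gelatinase of osteoclasts, with 1.28 (adjusted p = 0.000746) and CTSK, cathepsin K, with 0.55 (adjusted p = 0.000854). Further pump genes, ATP6V0C, ATP6AP1, ATP6V1B2, ATP6V1E1, ATP6V1F and ATP6V1G1, had slopes from 0.24 to 0.42. The lysosomal genes GRN (progranulin), GUSB (beta-glucuronidase), NPC2 (cholesterol export) and GNPTAB (mannose-6-phosphate tagging), with PLEKHM1 of lysosome fusion, had slopes from 0.39 to 0.54. MT2A, a metallothionein, fell with a slope of -0.56 (adjusted p = 0.0367). With the Dap spike as a covariate 19 of the 27 named genes stayed past the threshold, and NPC2, PLEKHM1 and MT2A did not. ATP6V0D2, TCIRG1, GRN, MMP9 and CTSK passed with the 3′ to 5′ difference as a covariate, with the Dap spike as a covariate and with each of the 15 tumors left out in turn. The count of all probe sets called was 49 with every tumor, 18 without tumor 10, 28 without tumor 5 and 32 without tumor 7.

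In the comparison of classes these osteoclast genes did not separate. CTSK was at 12.85, 12.90, 11.64, 12.53 and 12.27 in macrophage-rich and 11.55, 12.28, 11.20, 11.84 and 11.78 in macrophage-poor tumors, with a difference of 0.71 ± 0.27 (SE) and overlapping classes. MMP9 differed by 1.08, ATP6V0D2 by 1.41 and TCIRG1 by 0.75, each with an unadjusted p over 0.1, against 0.0248 for CTSK. Among the tumors with full 5′ signal alone MMP9 turned to -0.59 and ATP6V0D2 to -0.50. The median over the 11 osteoclast genes was 0.38. CTSK was also at 10.43 and 8.82 in the cell lines, where MMP9 was at 4.91 and 4.13 and ATP6V0D2 at 3.62 and 3.19.

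The genes that rose with CTSS included several of antigen-presenting macrophages. DLA-DRA had the smallest p, with a slope of 1.35 log2 units per log2 unit of CTSS (SE 0.12, adjusted p = 0.000198), and DLA-DQA1 and DLA-DQB1 rose with 1.38 and 1.26. Of 6 MHC class II genes 3 passed and of 20 macrophage surface genes 4 passed, CD86 at 0.997 (adjusted p = 0.00403), CD163 at 1.54 (adjusted p = 0.00403), AIF1 at 0.64 (adjusted p = 0.00487) and the lipopolysaccharide receptor TLR4 at 0.99 (adjusted p = 0.0105). None of the 11 osteoclast genes did. The high-affinity Fc receptor FCGR1A rose with 1.38, CYBB with 1.17, the complement protease C1S with 1.05 and BPI, an antibacterial protein, with 1.17. Matrix genes FBN1 and FBLN2 were also among them, at 1.37 and 1.65. NPY, a neuropeptide, fell with a slope of -1.97 (adjusted p = 0.0359). With the Dap spike as a covariate 18 of the 20 named genes stayed past the threshold, and FBLN2 and CASP4 did not. DLA-DRA, CD86, CD163, AIF1, TLR4 and BPI passed with the 3′ to 5′ difference as a covariate, with the Dap spike as a covariate and with each tumor left out in turn. The count of all probe sets called was 36 with every tumor, 18 without tumor 12, 20 without tumor 11, 20 without tumor 13, 22 without tumor 2 and 23 without tumor 7.

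None of the genes named for CD68 passed on CTSS, and none of those named for CTSS passed on CD68. DLA-DRA had a slope of -0.09 on CD68 (adjusted p = 0.944), CD86 of -0.02 and AIF1 of -0.03, and ATP6V0D2 a slope of -1.02 on CTSS (adjusted p = 0.925), TCIRG1 of -0.15 and CTSK of -0.26. The difference between slopes was not tested. Tumor 6 shows the contrast in levels: ATP6V0D2 at 9.94, MMP9 at 12.68 and CTSK at 12.68 were among the highest of the 15 tumors, and CD86 at 6.70, CD163 at 5.44 and AIF1 at 5.73 were the lowest. Tumor 2 had ATP6V0D2 at 4.0 and MMP9 at 6.31, among the lowest, beside CD163 at 9.15, CD86 at 8.45 and AIF1 at 6.83, the last at the median of the tumors.

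**Figure D5:**
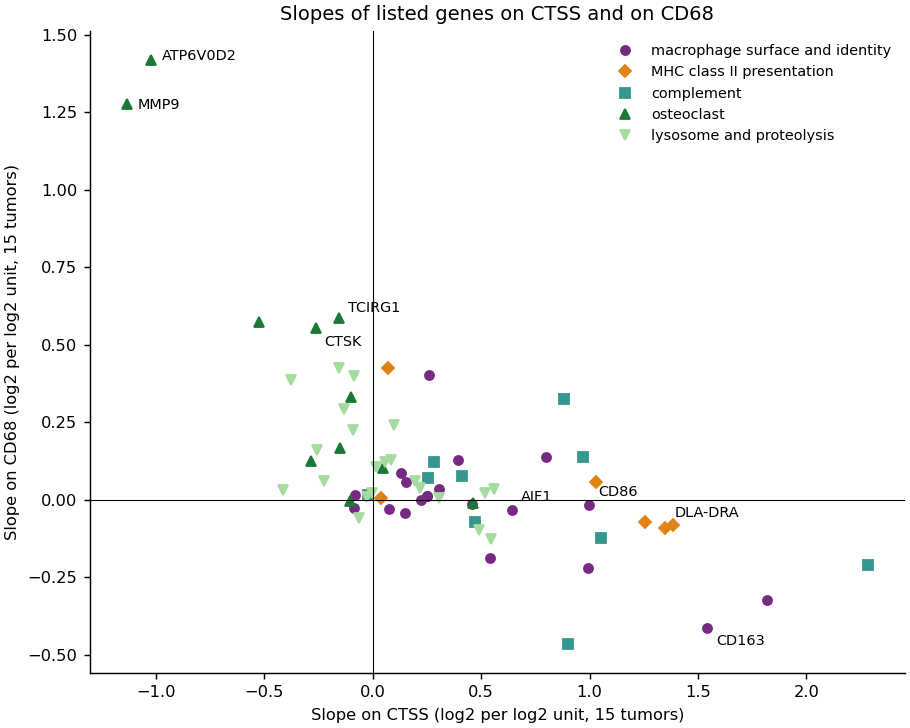
Slope on CTSS (horizontal axis) against slope on CD68 (vertical axis), both in log2 units per log2 unit over 15 tumors, one point per measured gene of 5 lists. Osteoclast genes such as ATP6V0D2 and MMP9 lie high and to the left, and DLA-DRA, CD86 and CD163 lie to the right near or under 0.

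CSF1R and LYZ were less stable guides. On CSF1R 16 probe sets rose, 11 of 6536 named genes (0.168%), among them LAPTM5, a lysosomal membrane protein of blood cells, at 0.65 (adjusted p = 0.00174), TYROBP at 0.55, RAC2, the Rac of blood cells, at 0.92, IFI30, a lysosomal thiol reductase of antigen processing, at 0.61 and TCIRG1 at 0.69. The count was 0 without tumor 10, 1 without tumor 2, 1 without tumor 7, 27 without tumor 11, 1 with the 3′ to 5′ difference and 7 with the Dap spike as a covariate. On LYZ 123 probe sets rose and 20 fell, with 52 of 6536 named genes (0.796%) rising, but the count of calls was 3 without tumor 5 and 3 without tumor 11, and from 63 to 78 without tumor 4, 12, 2 or 1. Tumors 11, 5 and 2, with LYZ levels of 11.12, 10.84 and 9.71, were on arrays with a Dap spike signal of 7.23, 8.17 and 8.16, and with the spike as a covariate 0 probe sets passed (1598 at an unadjusted p under 0.05), so LYZ and the spike cannot be told apart in these calls. The genes that rose with LYZ without that covariate included the lectin CD209 at 0.73, MRC1 at 1.21, TLR4 at 0.58 and CD163 at 0.81. They also included endothelial genes, 4 of 12 measured, SELE at 0.96, SELP at 0.64, TEK at 0.38 and ECSCR at 0.47. The mean of the endothelial list was 1.33 above the average tumor in tumor 5 and 0.76 in tumor 11, the tumors with the highest LYZ levels, and its part in these slopes was not tested.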

How the data were processed

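The deposited values were log2 intensities that the authors had summarized by RMA (background correction, quantile normalization and median polish) from Affymetrix Canine Genome arrays, 1 per sample. Software versions are not given in the sources used here. Of 23913 probe sets, 77 controls and 10 of the score genes were left out and 23826 tested. Symbols came from GEO's platform annotation: 10549 probe sets had 1 gene symbol, 138 several and 13149 none, giving 6540 genes. Where several probe sets named a gene, the one brightest on average in the 23 samples stood for it. Of the others, 1 of HLA-DRB1 and 1 of CXCL8 differed in the opposite direction. The size of a difference also depended on the probe set. Other probe sets gave 0.30 for DLA-DQB1, 0.18 for ALOX5, 0.16 for IL18, 0.41 for ATP8A1 and 0.15 and 0.24 for MMP9, all smaller. They gave 1.37 for TYROBP and 0.73 for GUSB, both larger. Arrays give no read depth, so precision rests on the number of tumors. Classes were compared with limma 3.58.1 (R 4.3.3; lmFit, eBayes, Benjamini-Hochberg over all tested probe sets), and the same model was used for regressions over 15 tumors; SE is the moderated standard error. The 5′ quality measure was compared by exact permutation. The limma models for classes and for a regression were tested on simulated data with independent probe sets, and the other steps were not. P-values of the classes and regressions measure association with the score or its genes, judged against the spread between these tumors. Whether each tumor came from a different dog is not given.

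Tumors, gene lists and tests were chosen with earlier results of these data known. Named genes were the 10 smallest unadjusted p-values in each direction, up to 4 genes per list, a fixed set of macrophage, osteoclast, lymphocyte and stromal genes (of which MSR1, C1QB, CSF1, IL34, ACP5, MS4A1, MKI67 and TOP2A had no named probe set), and, after their values were seen, genes called in the regressions. Alternatives were other class sizes, scores without each gene, covariates, a filter on dim probe sets, array centring, another variance model and leaving out each tumor.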

Additional observations from a re-analysis of the deposited data

Results flagged for a closer look

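Each named gene, each score gene, the score and the 3′ to 5′ difference were checked in each class, 162 sets of 5 tumors. Of these, 12 held 1 tumor whose gap to the nearest other tumor was over 0.71 of the range, and chance gives about 1 in 20. Tumor 4 was the highest macrophage-poor tumor for HLA-DRB1 at 10.43 (next 9.34), CCL5 at 7.77 (next 5.82), CD3D at 5.21 (next 4.72) and SLAIN2 at 8.83 (next 7.73). Tumor 12 was the lowest macrophage-poor tumor for ITGB2 at 5.73 (next 6.17). Tumor 9 was the highest macrophage-rich tumor for FCER1G at 6.10 (next 4.52), and the lowest for GORASP2 at 9.29 and SLAIN2 at 6.40. Among the others, FCER1G was highest of the macrophage-poor tumors in tumor 13 at 4.30, COL1A1 lowest of them in tumor 15 at 12.32, TIMP2 lowest of the macrophage-rich tumors in tumor 11 at 9.53 and LOC475806 highest of them in tumor 7 at 9.19.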

How the results depend on the processing

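No probe set passed the threshold between the classes under any of 24 alternatives that kept classes or at a threshold of 0.01 (with 542 to 2026 probe sets at an unadjusted p under 0.05 and a smallest adjusted p of 0.0734, without tumor 8), with the lowest and highest count 0 when single tumors were left out. The score as a continuous measure gave 6 calls, and 12 with the 3′ to 5′ difference as a covariate. Leaving out single tumors gave 0 to 7 calls for the score, 0 to 27 for CSF1R, 18 to 51 for CD68, 18 to 37 for CTSS and 3 to 202 for LYZ, and the covariate gave 1 call for CSF1R. The Dap spike as a covariate gave 11 calls for the score, 7 for CSF1R, 37 for CD68, 41 for CTSS and 0 for LYZ. The difference in 3′ to 5′ signal was -0.19 from actin alone and ran from -0.55 to 0.65 with single tumors left out, taking the opposite sign without tumor 7 (-0.41), 10 (-0.19), 13 (-0.55), 14 (-0.17) or 15 (-0.28).

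Of 75 named genes, 65 kept the sign of their difference throughout. With LYZ left out of the score the difference was -0.51 for MRC1, -1.06 for CD163, -3.06 for CCL2, -3.64 for CXCL8, -0.88 for PECAM1 and 0.11 for ALPL. With CTSS left out it was -1.0 for CCL2, -1.60 for CXCL8 and -0.037 for PECAM1. COL1A1 was at -0.10 without CSF1R in the score, -0.72 without CD68, -0.63 with 7 tumors per class, -0.24 in tumors with low 5′ signal and -0.11 without tumor 15. In tumors with full 5′ signal alone JCHAIN was at -0.60, MMP9 at -0.59 and ATP6V0D2 at -0.50. With single tumors left out CCL2 ran from -0.50 to 1.2, COL1A1 from -0.11 to 0.28 and PECAM1 from -0.054 to 0.81. CCL2 was at -0.08 without tumor 4, -0.50 without tumor 11, -0.18 without tumor 12 and -0.12 without tumor 13, and PECAM1 at -0.054 without tumor 11. The cause was not tested. Dropping CSF1R, CTSS, LYZ or CD68 from the score kept 5, 4, 4 or 4 of the 5 macrophage-rich and 4, 3, 2 or 5 of the 5 macrophage-poor tumors. No paired analysis was possible because the tumor labels carry no replicate numbers.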
